A study of Papio cynocephalus with 12 samples.

Results

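The globin genes were followed through 6 tables of read counts that were made from the same reads of 12 yellow baboons (Papio cynocephalus) by 6 mapping methods. The 10 genes were taken from a list of human RefSeq accessions and are 10 of the 40915 accessions in each table. In the alpha cluster they are HBA1 (NM_000558), HBA2 (NM_000517), HBQ1 (NM_005331), HBM (NM_001003938) and HBZ (NM_005332), and in the beta cluster HBB (NM_000518), HBD (NM_000519), HBG1 (NM_000559), HBG2 (NM_000184) and HBE1 (NM_005330). Each has 1 row, and all 10 had reads in every animal with every method and passed the filter on low counts.

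The samples form 1 group, blood of adult male colony-bred baboons drawn at baseline, before inoculation with Streptococcus pneumoniae, with 1 sample an animal. The comparisons are between methods: Stampy and Bowtie2 placed the reads on the human reference transcriptome, and TopHat2, Stampy-G, Bowtie2-G and GSNAP placed them on the human genome (hg19). The study describes blood kept in PAXgene tubes and depleted of globin RNA before sequencing, whereas the labels name mononuclear cells. The counts are therefore what remained after depletion, and an animal with more globin RNA cannot be told apart from one that lost less of it, nor fewer red cells from less RNA in each. Other accessions carry no gene names here, so markers of leukocytes and red cells were not checked. HBA1 and HBA2 are near-identical copies, and so are HBG1 and HBG2, and a read of one copy can be counted at the other, so single copies are reported as uncertain beside the sum of both. The strand setting of the counting is not stated.

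Hemoglobin joins a pair of alpha-like chains with a pair of beta-like chains around heme, and its messenger RNA dominates red cells and the young red cells that still carry RNA. The roles given here are known from humans. HBA1 and HBA2 encode the alpha chain and HBB the adult beta chain. HBG1 and HBG2 encode the fetal gamma chains, while HBE1 (epsilon) and HBZ (zeta) serve the embryo. HBD encodes the delta chain of a minor adult hemoglobin and is known to be silent in Old World monkeys, the group to which baboons belong. HBQ1 (theta) and HBM (mu) lie in the alpha cluster and have no settled part in hemoglobin.

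The 10 genes took between 4.28% and 38.3% of all counts of a column. With TopHat2 the lowest animal had 4.28%, the median was 8.30% and the highest animal had 32.9%, and with Bowtie2-G these were 5.40%, 10.5% and 38.3%. Animal 11 was highest and animal 8 lowest with each of the 6 methods. Without animal 11, the highest share was 11.5% with TopHat2 and 14.2% with Bowtie2-G. Total counts per column were 7249470 to 18911340, and animal 11 also had the highest total with each method. The widest 95% Wilson interval of a share was 0.0603 percentage points, so counting error, which is all such an interval covers, was small beside the spread over animals.

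**Figure D1:**
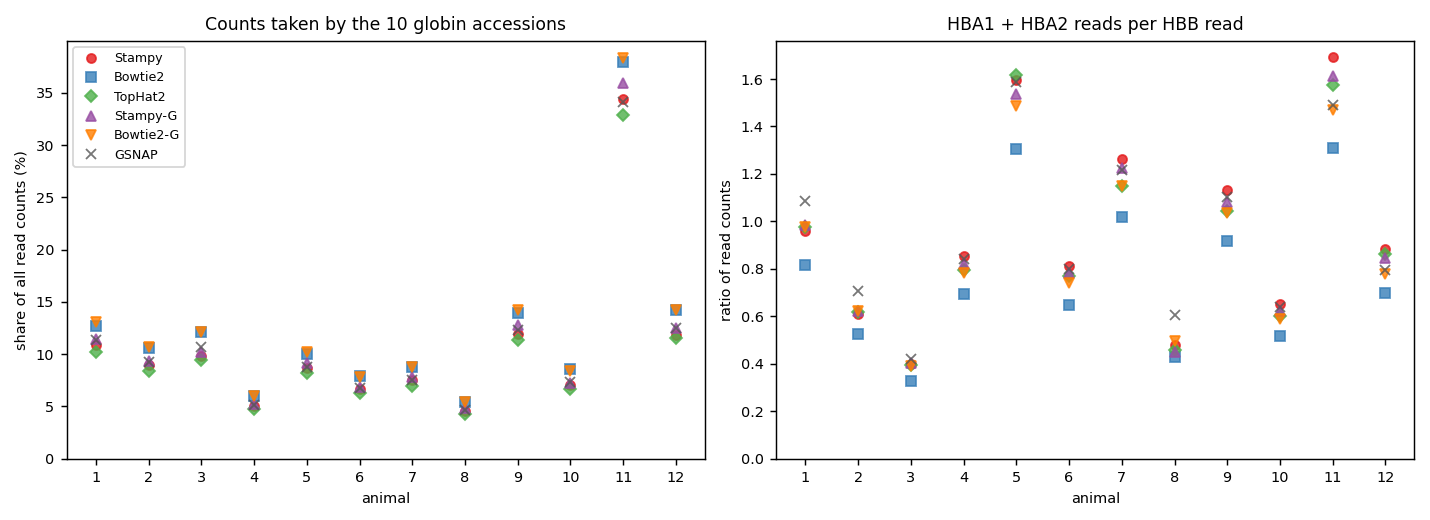
The left panel plots the percentage of all read counts taken by the 10 globin accessions and the right panel the ratio of HBA1 plus HBA2 reads to HBB reads, each for animals 1 to 12 on the horizontal axis, with 1 symbol for each mapping method. Animal 11 lies between 32.9% and 38.3% in the left panel while the others lie at or below 14.2%, and in the right panel animal 3 is lowest and animals 5 and 11 are highest.

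The methods divided the reads of the same animal between globin and other genes in different proportions. The globin share of counts averaged 10.1% ± 7.57 with TopHat2 and 12.4% ± 8.67 with Bowtie2-G (SD, n = 12), and TopHat2 was lower by 2.36 percentage points in the mean, in 12 of 12 animals. TopHat2 was also lower than GSNAP, which averaged 10.9% ± 7.78 (mean difference -0.796 points, 12 of 12 animals). The share averaged 10.6% ± 7.89 with Stampy and 12.3% ± 8.55 with Bowtie2 (mean difference -1.73 points), and 11.1% ± 8.24 with Stampy-G against 12.4% ± 8.67 with Bowtie2-G (mean difference -1.31 points). Stampy was lower than Stampy-G by 0.515 points in the mean. Each of these 5 differences had the same sign in 12 of 12 animals and an exact paired permutation p of 0.000488 (two-sided, the smallest 12 pairs can give; adjusted p = 0.000586 over 6 pairs of methods). Bowtie2 and Bowtie2-G differed by -0.0935 points in the mean, with 5 animals higher and 7 lower (exact permutation p = 0.118), which is within the spread of the difference (SD 0.187 points). Without HBA1 and HBA2 the share of the other 8 genes was higher with Bowtie2 by 0.126 points (adjusted p = 0.000488, exact permutation), so this result turned with the alpha genes left out. Per read pair instead of per count, 5 of these 6 differences change sign, since the methods also differ in how many reads they counted in all.

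Within the globin reads the make-up also depended on the method. The alpha pair made up 43.3 of 100 globin reads with Stampy (mean of 12 animals), 36.8 with Bowtie2, 39.0 with TopHat2, 41.6 with Stampy-G, 38.3 with Bowtie2-G and 38.2 with GSNAP. HBD made up 3.96 with Stampy and 14.6 with GSNAP, and HBE1 0.0518 with Stampy-G and 1.94 with GSNAP, the lowest and highest of the methods in each case. The gamma pair made up 1.55 with Stampy-G and 4.85 with TopHat2, again the lowest and highest. HBQ1, HBM and HBZ together were below 1 of 100 globin reads in every animal. These shares were added after the data were seen and carry no test.

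Between methods, each gene was tested with edgeR's quasi-likelihood test on all accessions, with the animal as a block and the same library size for both columns of an animal. A fold above 1 then means more reads of the same library counted at the gene. Because the methods counted different numbers of reads, the median of all accessions was itself shifted, by 0.19 to 0.72 on the log2 scale, and calls were read beside it and beside a second scaling, in which each column was scaled to its own total (TMM, trimmed mean of M-values). The replicates are animals and both columns of a pair hold the same reads, so p-values measure how evenly a method difference recurs over animals. Several pairs of methods share a table and are not independent. The numbers of genes called below take each copy of the alpha and gamma pairs as a gene of its own.

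TopHat2 against Bowtie2-G gave 5 globin genes higher and 5 lower, where 70.8% of all accessions tested were called higher and 8.15% lower (median log2 fold change 0.12 over the 10 genes and 0.20 over all accessions). These include the single copies HBA2 and HBG1 as higher and HBA1 and HBG2 as lower. With copies summed, the alpha pair was not called (-0.03) and the gamma pair was higher (0.75). With TMM scaling, 34.1% of accessions were higher and 45.2% lower, and 9 of the 10 genes kept their call, HBM being the exception. TopHat2 against GSNAP gave 7 genes higher and 2 lower, with 93.3% of accessions higher and 3.25% lower, and a median of 0.75 over the 10 genes beside 0.72 over all. With TMM scaling, 6 genes kept their call, HBA2, HBG1, HBQ1 and HBM as higher and HBA1 and HBD as lower, HBE1 and HBG2 were called lower, and the accessions were split 41.6% higher and 41.1% lower. With a shared library size TopHat2 thus counted more reads than GSNAP at most globin genes and at most other accessions.

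Stampy against Bowtie2, both on the transcriptome, gave 4 genes higher and 5 lower, although 82.6% of accessions were called higher and 3.36% lower. Here the median was -0.14 over the 10 genes and 0.38 over all accessions. HBD, HBG1, HBG2, HBE1 and HBZ were lower and HBQ1 higher under both scalings, while HBA1, HBA2 and HBM were higher with a shared library size and lower with TMM scaling. On the genome, Stampy-G against Bowtie2-G gave 6 genes higher and 4 lower, with 89.8% of accessions higher and 1.85% lower (medians 0.23 and 0.42). HBD, HBG1, HBG2 and HBE1 were lower and HBA2 and HBQ1 higher under both scalings, while HBA1, HBB and HBZ were lower with TMM scaling. With TMM scaling the accessions split 33.3% higher and 48.3% lower with Stampy over Bowtie2, and 35.9% and 37.4% with Stampy-G over Bowtie2-G. In both Stampy comparisons the genes called lower under both scalings included HBD, HBE1 and both gamma genes.

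Transcriptome against genome gave 8 genes higher and 1 lower with Bowtie2 (70.2% of accessions higher, 7.28% lower; medians 0.26 over the 10 genes and 0.22 over all), and HBB, HBE1 and HBZ as higher and HBD as lower held under both scalings, while HBA1, HBA2, HBG1 and HBM were lower with TMM scaling. With Stampy it gave 7 genes higher and 3 lower (64.7% of accessions higher, 9.06% lower; medians 0.17 and 0.19). HBG1, HBG2 and HBE1 as higher and HBD, HBQ1 and HBM as lower held under both scalings, while HBA1, HBA2 and HBB were lower with TMM scaling. With TMM scaling the accessions split 34.8% higher and 48.2% lower with Bowtie2, and 33.6% and 54.2% with Stampy. HBD was thus called lower with the first-named method in all 6 pairs and under both scalings, a direction that depends on the order in which the methods are named.

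**Figure D2:**
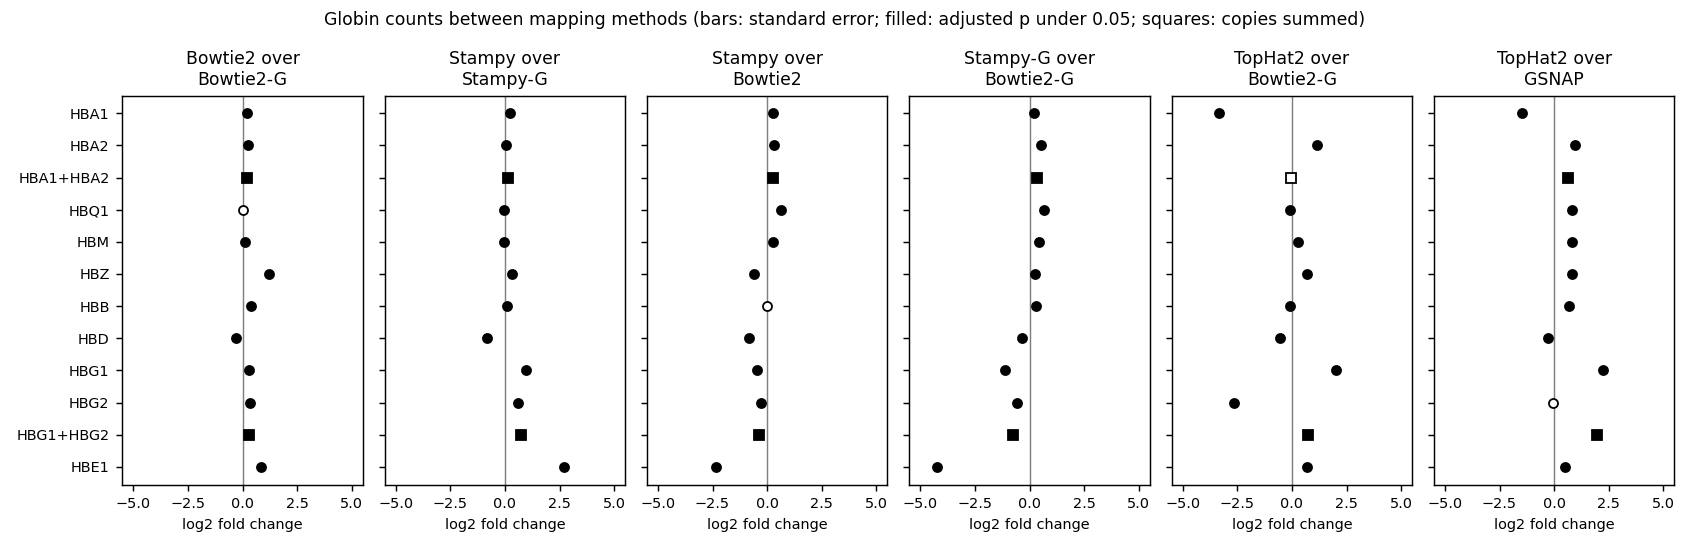
Each panel plots, for 1 pair of methods, the log2 fold change of the 10 globin accessions and of the 2 summed pairs of copies (squares), first-named method over second, from edgeR with a library size shared by both columns of an animal; bars are standard errors, mostly smaller than the symbols, and filled symbols have an adjusted p under 0.05. HBE1 falls farthest to the left with Stampy-G over Bowtie2-G (-4.22) and HBA1 with TopHat2 over Bowtie2-G (-3.36). In the latter pair the sum of HBA1 and HBA2 is near 0 (-0.03), below the median accession (0.20). With TMM scaling several of the small positive values, such as HBA1 with both Stampy comparisons to Bowtie2, lie below 0.

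Together, HBA1 and HBA2 had 153851 to 2737551 reads an animal with TopHat2 (median 423179) and 167958 to 2697511 with Bowtie2-G (median 440426). The sum was higher with TopHat2 in 3 animals and lower in 9. With a shared library size its log2 fold change was -0.03 ± 0.01 SE (edgeR adjusted p = 0.0625), so no difference was called. The median accession of this pair was at 0.20, and the sum was not fitted with TMM scaling. As a share of all counts of a column, the sum averaged 4.29% with TopHat2 and 5.14% with Bowtie2-G. The single copies were far apart. HBA1 had 9361 to 191847 reads with TopHat2 (median 20392) and 102059 to 1545009 with Bowtie2-G (median 256810), and its log2 fold change was -3.36 ± 0.17 (edgeR adjusted p = 6.92e-11). HBA2 had 144490 to 2545704 reads with TopHat2 (median 405592) and 65899 to 1152502 with Bowtie2-G (median 183617), and its log2 fold change was 1.14 ± 0.01 (edgeR adjusted p = 3.52e-21). TopHat2 was lower at HBA1 and higher at HBA2 in all 12 animals.

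The share of HBA1 among the reads of both copies shows this split within each library. It averaged 6.23% ± 2.64 with TopHat2, against 58.4% ± 0.953 with Bowtie2-G and 24.8% ± 2.23 with GSNAP (SD, n = 12). With TopHat2 the lowest animal had 4.13%, the median was 5.18% and the highest animal had 12.1%, with animals 5 (12.1%) and 12 (10.6%) above the others. With Bowtie2-G the range was 57.3% to 60.8%, so the 12 animals of these methods did not overlap. Stampy gave 56.2% ± 0.785 and Bowtie2 57.4% ± 0.844, and Stampy-G gave 53.1% ± 0.866. All 6 differences between paired methods had 1 sign in 12 of 12 animals (exact paired permutation p = 0.000488, also after adjustment over the 6 pairs). Stampy minus Stampy-G was positive (3.03 points), and the other 5 were negative, from -0.916 points for Bowtie2 minus Bowtie2-G to -52.1 points for TopHat2 minus Bowtie2-G. GSNAP counted fewer reads of both copies in sum, 114418 to 1647563 an animal with a median of 280448, and TopHat2 over GSNAP had a log2 fold change of 0.62 ± 0.02 for the sum (edgeR adjusted p = 3.83e-13). That is below the median of all accessions in this pair (0.72), while HBA1 alone was lower with TopHat2 (-1.47 ± 0.16, edgeR adjusted p = 3.16e-07).

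**Figure D3:**
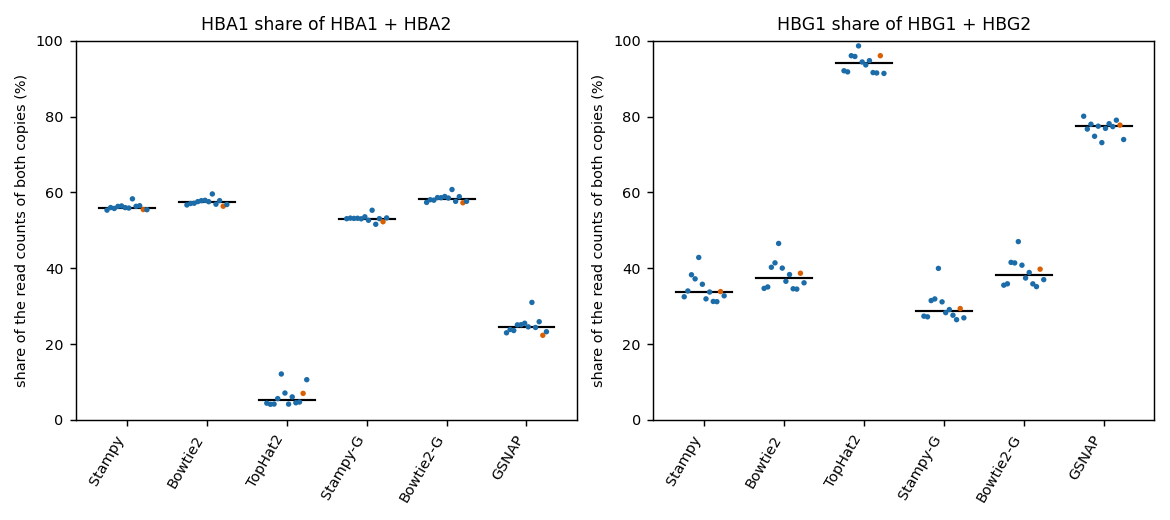
The left panel plots HBA1 reads as a percentage of HBA1 plus HBA2 reads and the right panel HBG1 reads as a percentage of HBG1 plus HBG2 reads, with 1 point for each of 12 animals (animal 11 in orange), a line at the median and the 6 methods on the horizontal axis. TopHat2 and GSNAP stand apart from the other methods in both panels, below them for HBA1 (means 6.23% and 24.8%) and above them for HBG1 (means 94.0% and 76.9%).

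HBB, the adult beta chain, had the most reads of the 10 accessions in every column except that HBA2 passed it in animals 5, 7 and 11 with TopHat2 and in animals 5 and 11 with GSNAP. That ranking takes single copies. With the alpha copies summed, alpha reads exceeded HBB reads in animals 5, 7, 9 and 11 with TopHat2, Bowtie2-G, Stampy and Stampy-G. They did so in animals 5, 7 and 11 with Bowtie2 and in animals 1, 5, 7, 9 and 11 with GSNAP. Per 100 globin reads HBB had 46.1 ± 7.85 with TopHat2 and 46.5 ± 7.55 with Bowtie2-G (SD, n = 12). Its counts were 303981 to 1740055 with TopHat2 (median 488564) and 317641 to 1835118 with Bowtie2-G (median 511172). TopHat2 was lower in 12 of 12 animals, with a log2 fold change of -0.06 ± 0.01 (edgeR adjusted p = 8.11e-07). With TMM scaling this log2 fold change was -0.35. Stampy and Bowtie2 were not called different at HBB (medians 691228 and 689740 reads, log2 fold change -0.0047 ± 0.012, edgeR adjusted p = 0.731), and with TMM scaling Stampy was lower (-0.48). Bowtie2 over Bowtie2-G gave 0.40 ± 0.01 and was higher in 12 of 12 animals.

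HBD had fewer reads with the first-named method in all 6 pairs and in 12 of 12 animals each time. With Stampy it had 27186 to 198804 reads (median 57330), and with Bowtie2 52446 to 358192 (median 100416), a log2 fold change of -0.83 ± 0.03 (edgeR adjusted p = 3.95e-13) where the median accession was at 0.38. Stampy over Stampy-G gave -0.82 ± 0.04, with a Stampy-G median of 98098.5 reads. The other 4 log2 fold changes lay between -0.52 (TopHat2 over Bowtie2-G) and -0.30 (TopHat2 over GSNAP). In proportion to HBB the range of HBD was wide: 8.04 ± 0.832 reads per 100 HBB reads with Stampy, 14.2 ± 0.880 with Bowtie2, 17.1 ± 1.32 with TopHat2, 15.3 ± 1.22 with Stampy-G, 23.5 ± 1.63 with Bowtie2-G and 34.2 ± 1.89 with GSNAP. Within a method the ratio varied little over animals except in animal 8, which was lowest with every method (13.1 with TopHat2, where the other 11 animals lay between 16.9 and 18.5).

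HBE1, the embryonic epsilon gene, had at least 2247 reads in every one of these adults with 5 of the methods and at most 1523 with Stampy-G. With Stampy-G it had 284 to 1523 reads (median 658.5), against 7142 to 41012 with Bowtie2-G (median 12016.5), and the 12 animals of both methods did not overlap. The log2 fold change was -4.22 ± 0.12 (edgeR adjusted p = 9.65e-15), an 18.6-fold lower count, where the median accession was at 0.42. On the transcriptome Stampy gave 2247 to 11189 reads (median 4018) and Bowtie2 12827 to 68769 (median 21866.5), a log2 fold change of -2.36 ± 0.10 (edgeR adjusted p = 2.44e-11). TopHat2 had 12047 to 62475 reads (median 19808) and exceeded Bowtie2-G in 12 of 12 animals (0.72 ± 0.02). Against GSNAP, with a median of 13513 reads, TopHat2 was higher in 12 of 12 animals (0.51 ± 0.02), but below the median accession of that pair, and with TMM scaling HBE1 was lower (-0.21).

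The HBE1 reads of an animal stood in a nearly fixed proportion to its HBB reads with 4 of the methods. Per 100 HBB reads there were 3.12 ± 0.222 HBE1 reads with Bowtie2, 3.96 ± 0.293 with TopHat2, 2.30 ± 0.103 with Bowtie2-G and 4.52 ± 0.269 with GSNAP (SD, n = 12). With Stampy the ratio was 0.614 ± 0.161 and with Stampy-G 0.105 ± 0.0432, and there the animals were less alike, from 0.0592 in animal 3 to 0.207 in animal 10. All 18 differences between paired methods in the HBE1, HBD and gamma reads per 100 HBB reads had 1 sign in 12 of 12 animals (exact paired permutation p = 0.000488, also after adjustment over the 18). These ratios were added after the data were seen. Whether reads of HBB were counted at HBD, at HBE1 or at the gamma genes was not tested.

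**Figure D4:**
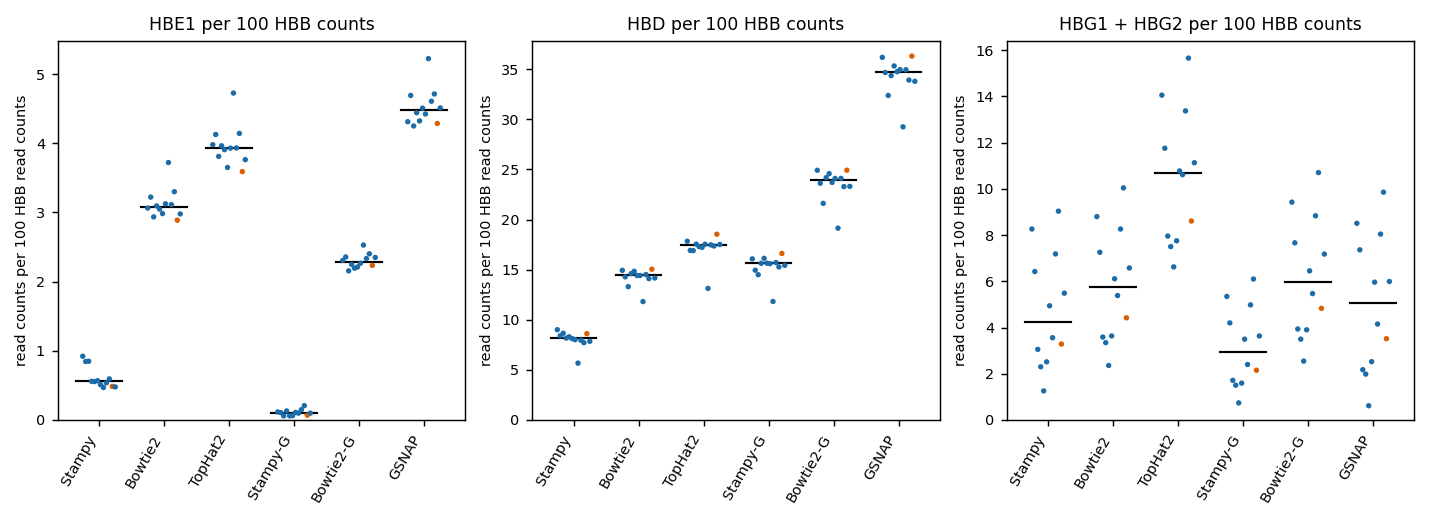
The panels plot HBE1, HBD and HBG1 plus HBG2 reads per 100 HBB reads, with 1 point for each of 12 animals (animal 11 in orange), a line at the median and the 6 methods on the horizontal axis. HBE1 and HBD differ between methods (HBE1 means from 0.105 with Stampy-G to 4.52 with GSNAP), and HBE1 spreads more over animals, relative to its mean, with Stampy and Stampy-G (coefficients of variation 0.262 and 0.410) than with the other methods (0.0449 to 0.0741).

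The fetal gamma genes were split between their copies in the opposite way to the alpha genes. HBG1 had 21861 to 143881 reads with TopHat2 (median 58278), against 4600 to 35247 with Bowtie2-G (median 14858.5), a log2 fold change of 2.03 ± 0.04 (edgeR adjusted p = 6.71e-15). HBG2 had 331 to 7113 reads with TopHat2 (median 4282.5) and 5257 to 53399 with Bowtie2-G (median 24357), a log2 fold change of -2.63 ± 0.09 (edgeR adjusted p = 1.30e-12). HBG1 thus made up 94.0% ± 2.37 of the reads of both copies with TopHat2 and 38.9% ± 3.48 with Bowtie2-G (SD, n = 12), with ranges of 91.4% to 98.6% and 35.2% to 47.0% that did not overlap. It made up 76.9% ± 2.05 with GSNAP, 34.6% ± 3.43 with Stampy, 38.1% ± 3.61 with Bowtie2 and 29.7% ± 3.72 with Stampy-G. Of the 6 differences, 5 had 1 sign in 12 of 12 animals (exact paired permutation p = 0.000488, adjusted p = 0.000586 over 6 pairs), and Bowtie2 was lower than Bowtie2-G in 11 of 12 animals by 0.789 points in the mean (exact permutation p = 0.000977, also after adjustment).

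Unlike the alpha sum, the gamma sum was called different between TopHat2 and Bowtie2-G with a shared library size. TopHat2 counted 22808 to 149795 reads of both copies (median 62350.5) and Bowtie2-G 9925 to 88646 (median 39151), and TopHat2 was higher in 12 of 12 animals (0.75 ± 0.07, edgeR adjusted p = 6.29e-08). The ratio of these sums, TopHat2 over Bowtie2-G, was 1.39 in the lowest animal and 2.46 in the highest. Against GSNAP, with 1420 to 38883 reads (median 20537), the ratio was 2.54 in the lowest animal and 17.2 in the highest (1.97 ± 0.19, edgeR adjusted p = 8.72e-08). Stampy-G counted 3510 to 47530 gamma reads (median 24759), fewer than Bowtie2-G in 12 of 12 animals (-0.76 ± 0.07, edgeR adjusted p = 2.51e-08).

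Gamma reads varied more over animals, in proportion to HBB, than HBD or HBE1 reads did with TopHat2. There the gamma reads per 100 HBB reads were 6.62 in the lowest animal, 10.7 at the median and 15.7 in the highest (coefficient of variation, SD over mean, 0.275, against 0.0773 for HBD and 0.0741 for HBE1). With Bowtie2-G they were 2.55, 5.96 and 10.7, and with GSNAP 0.615, 5.06 and 9.86. Animal 5 was lowest and animal 10 highest with each of the 6 methods. Animal 11, with the most globin reads, had 8.61 gamma reads per 100 HBB reads with TopHat2, below the median.

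HBZ, the embryonic zeta gene, had the fewest reads of the 10 accessions, 35 to 883 with TopHat2 (median 263) and 23 to 584 with Bowtie2-G (median 169.5). TopHat2 was higher in 12 of 12 animals (0.67 ± 0.04, edgeR adjusted p = 3.25e-10). Bowtie2 over Bowtie2-G gave the largest difference, 2.29-fold (edgeR adjusted p = 2.78e-07), with a ratio of 5.22 in animal 6, which had 120 reads with Bowtie2 and 23 with Bowtie2-G. Animal 6 had the fewest HBZ reads with every method, and animal 9 the most with each method but Bowtie2, where animal 11 had the most.

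HBQ1 and HBM, the remaining genes of the alpha cluster, had between 585 and 7087 reads in every column. HBQ1 had 1541 to 4372 reads with both Bowtie2 and Bowtie2-G (medians 2102 and 2080.5), and no difference was called with a shared library size (log2 fold change 0.0013 ± 0.0039, edgeR adjusted p = 0.916), while with TMM scaling Bowtie2 was lower (-0.31). Stampy-G gave 2406 to 7087 HBQ1 reads (median 3328.5), higher than Bowtie2-G in 12 of 12 animals (0.66 ± 0.01) and also with TMM scaling (0.22). HBM had 1002 to 3905 reads with TopHat2 (median 1984) and 585 to 2220 with GSNAP (median 1096.5), a log2 fold change of 0.82 ± 0.01 (edgeR adjusted p = 2.13e-19) beside 0.72 for the median accession. TopHat2 over GSNAP gave nearly the same value for HBQ1, 0.83 ± 0.01, and with TMM scaling both genes were still called higher (HBQ1 0.11, HBM 0.10).

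**Figure D5:**
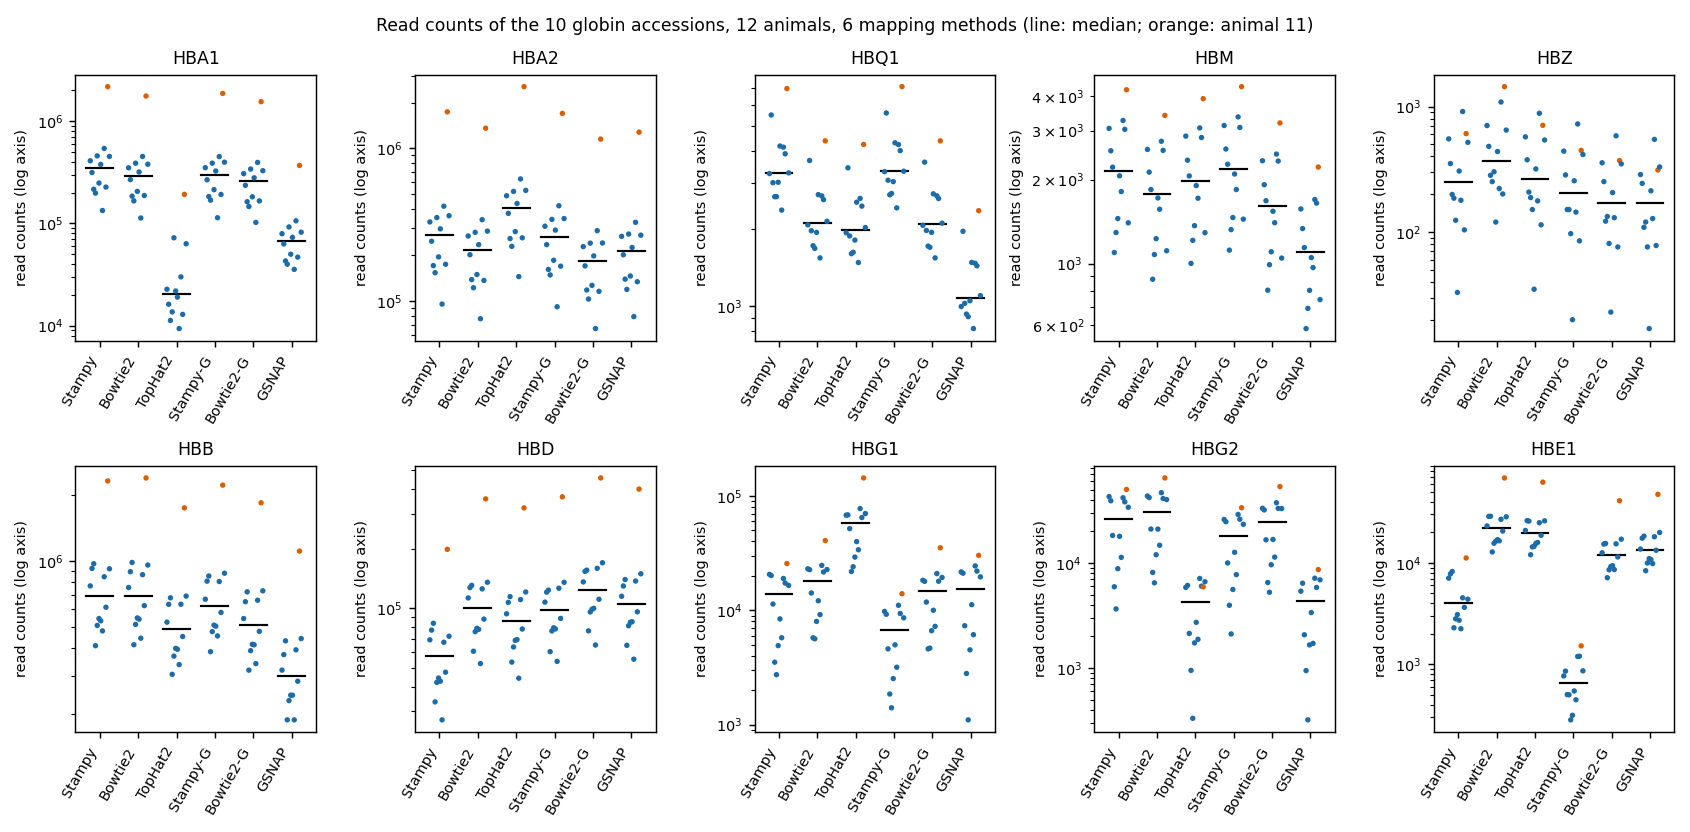
Each panel plots the read counts of 1 globin accession on a log axis, with 1 point for each of 12 animals (animal 11 in orange), a line at the median and the 6 methods on the horizontal axis. The medians shift between methods by gene: HBA1 is lowest with TopHat2 (20392), HBE1 with Stampy-G (658.5), and HBQ1 and HBM with GSNAP (1076.5 and 1096.5).

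The balance of alpha to beta reads differed widely among animals and little between methods. HBA1 plus HBA2 reads per HBB read were 0.395 in the lowest animal, 0.828 at the median and 1.62 in the highest with TopHat2, and 0.389, 0.780 and 1.49 with Bowtie2-G. Animal 3 was lowest with each method, and animals 5 and 11 were the 2 highest with each. A ratio of reads is not a ratio of levels, since gene lengths were not used. On the log2 scale, TopHat2 minus Bowtie2-G was 0.03 in the mean (9 of 12 animals higher, exact paired permutation p = 0.119), Bowtie2 minus Bowtie2-G was -0.20 and Stampy minus Bowtie2 was 0.29 (12 of 12 animals each, adjusted p = 0.00146 over 6 pairs, exact permutation). Stampy minus Stampy-G was 0.04 (9 of 12 animals higher, adjusted p = 0.0264, exact permutation), and without animal 10 it missed the threshold (mean 0.037, adjusted p = 0.0508, exact permutation). Stampy-G minus Bowtie2-G was 0.05 (10 of 12 higher) and TopHat2 minus GSNAP -0.08 (9 of 12 lower), each with an adjusted p of 0.0439 by exact permutation. Stampy-G minus Bowtie2-G missed the threshold when any of 10 animals was left out (mean 0.04 to 0.07), and TopHat2 minus GSNAP when any of 9 was (mean -0.10 to -0.05). With HBD added to HBB the difference between TopHat2 and GSNAP turned to 0.11 (adjusted p = 0.0171, exact permutation), and that between TopHat2 and Bowtie2-G became 0.11 and passed the threshold (adjusted p = 0.00117, exact permutation). TopHat2 minus Bowtie2-G also passed without animal 8 (mean 0.046).

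Across animals, alpha and HBB levels, as log2 of CPM (counts scaled to the total of the column) plus 1, rose together, but the relation rested on few animals. Pearson's r was 0.791 with TopHat2 (permutation p = 0.00441, adjusted p = 0.00625 over 6 tables) and Spearman's rho 0.587 (permutation p = 0.0499, also after adjustment), and r lay between 0.762 and 0.803 over the methods. Without the 2 animals farthest from the median of the alpha level, r was 0.371 with TopHat2 and 0.318 to 0.401 over the methods, and without animal 11 alone it was 0.513 with TopHat2. Both levels share the library and its globin depletion.

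HBD had an r with HBB of 0.978 to 0.994 over the 6 methods, and HBE1 of 0.671 to 0.995. With TopHat2, r with HBB was 0.988 for HBD (rho 0.993) and 0.990 for HBE1 (rho 0.944), and without the 2 farthest animals r was 0.999 and 0.972. With Stampy-G, r was 0.985 for HBD but 0.671 for HBE1 (permutation p = 0.0137, adjusted p = 0.0205; rho 0.727, permutation p = 0.00948, adjusted p = 0.0228), and without animal 11 it was 0.591. The gamma sum had an r of 0.867 with HBB with TopHat2 (permutation p = 0.00018, adjusted p = 0.00054; rho 0.811, permutation p = 0.00231, adjusted p = 0.00693) and of 0.619 with GSNAP (permutation p = 0.0315, adjusted p = 0.0379; rho 0.706, permutation p = 0.013, adjusted p = 0.0293). The permutation p of r was 1e-05, the smallest 100000 resamples can give, for HBD and for HBE1 with TopHat2 (adjusted p = 3.6e-05 over the 36 correlations of other genes with HBB, all added after the data were seen).

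The levels of HBQ1, HBM and HBZ were also compared with HBB, and differences between correlations were not tested. With TopHat2, r was 0.764 for HBQ1 (permutation p = 0.00366, adjusted p = 0.00878; rho 0.629, permutation p = 0.0323, adjusted p = 0.0422), and 0.593 without the 2 farthest animals. It was 0.650 for HBM (permutation p = 0.0188, adjusted p = 0.0251; rho 0.650, permutation p = 0.0257, adjusted p = 0.0385), and 0.397 without them. HBZ had an r of 0.593 (permutation p = 0.0411, adjusted p = 0.0462; rho 0.587, permutation p = 0.0488, adjusted p = 0.0549) with TopHat2. It passed the threshold for r with TopHat2 and with Bowtie2 (r = 0.708, adjusted permutation p = 0.0155) and missed it with the other 4 methods, where r was 0.472 to 0.553 (adjusted permutation p = 0.0676 to 0.124).

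The spread over animals, as the coefficient of variation of CPM, was wider for all 10 globin genes than for the median accession with at least 100 counts on average (0.235 with TopHat2, 0.252 with Bowtie2-G). With TopHat2 it was 1.19 for HBA1, 1.04 for HBA2, 0.740 for HBZ, 0.638 for HBG2 and 0.624 for HBD. It was 0.570 for HBB, 0.527 for HBG1, 0.509 for HBE1, 0.398 for HBM and 0.293 for HBQ1. HBQ1 was the gene nearest to the other accessions, 72.9% of which varied less. Animal 11 set much of the spread of the alpha genes and of HBB: without it the value was 0.815 for HBA1 with TopHat2, 0.419 for HBA2 and 0.314 for HBB. For the sum of HBA1 and HBA2 with TopHat2 it was 1.04 with animal 11 and 0.430 without. With Bowtie2-G, HBA1 alone had 0.405 without animal 11. HBZ kept its spread without animal 11 (0.788), and its highest animal had 24.8 times the CPM of its lowest.

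The accessions outside the list whose levels were most like the summed globin level over the 12 animals, among 6687 with at least 100 counts on average with TopHat2, were NM_002099 (Pearson's r = 0.879) and NM_016633 (r = 0.877). These values describe likeness over 12 animals that include animal 11, carry no test, and the sources used here give these accessions no gene name.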

How the data were processed

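Reads of 12 baseline blood samples, 1 an animal, had been mapped by 6 methods. Per the labels and the study's methods, the authors trimmed reads with Trimmomatic 0.25, mapped them (Bowtie2 2.0.6 and TopHat2 2.0.7 among others) and deposited raw read counts per human RefSeq accession from HTSeq 0.5.4, with no normalization. A read that fits near-identical copies can be counted at either, and the methods treat such reads differently. By the paper's account of the defaults, Bowtie2 and Stampy pick among equal places at random, while TopHat2 and GSNAP can report several. For its differential expression the study counted only primary alignments.

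Rows of 1 accession were summed (41970 rows, 40915 accessions). Columns were matched to animals by the number in their names, and 0 columns belonged to no sample. Any pair of animals differed by more than sampling noise (smallest chi-square per degree of freedom 16.1), and all 12 columns matched their own animal best in every pair of methods, so the animal served as a block. Methods were compared with edgeR 4.0.16 (quasi-likelihood, filterByExpr, 1 library size for both columns of an animal, Benjamini-Hochberg over all accessions tested, threshold 0.05). The fit was tried first on simulated counts. There both columns of an animal were drawn independently, whereas here they hold the same reads, so that trial does not vouch for the calls. Standard errors are approximate, the fold change over the root of F. Shares and ratios were compared by exact paired permutation (4096 sign exchanges, two-sided), correlations by 100000 resamples of log2(CPM + 1), in R 4.3.3, Python 3.11.15 and scipy 1.17.1. DESeq2 1.42.0, TMM scaling, other filters, no block and leaving out animals were tried as alternatives.

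All 10 members are named, and the members and lists were chosen with earlier results of these data known. Likeness was ranked by Pearson's r with the summed globin level among accessions with a mean of at least 100 counts, and the 2 highest are printed. Gene lists beyond the members, sequences and gene names of other accessions were not used here.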

Additional observations from a re-analysis of the deposited data

How the results depend on the processing

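The HBA1 share kept its direction and its side of the threshold under each alternative tried for it, as did the calls of HBD as lower under TMM scaling. The only alternative for the HBG1 share was a minimum count over both copies. Every animal's sum lay above it (lowest 1420, with GSNAP), so the result could not change. The HBE1, HBD and gamma reads per 100 HBB reads were only recomputed without animal 11 and kept their calls. Leaving out 1 animal could not turn a difference that had the same sign in every animal. Per 100 read pairs after quality control, the difference in globin counts became 0.832 for Bowtie2 over Bowtie2-G, 0.311 for Stampy over Stampy-G, 0.209 for Stampy over Bowtie2, 0.730 for Stampy-G over Bowtie2-G and 1.38 for TopHat2 over GSNAP, and without HBA1 and HBA2 the share of Bowtie2 over Bowtie2-G became 0.126 points and passed the threshold. With HBD counted as beta, the log2 alpha to beta ratio became 0.11 both for TopHat2 over Bowtie2-G and for TopHat2 over GSNAP, past the threshold in each.

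Leaving out 1 animal at a time, this ratio ranged from 0.0358 to 0.0467 for Stampy over Stampy-G (threshold missed without animal 10), from 0.0436 to 0.0677 for Stampy-G over Bowtie2-G, from 0.0225 to 0.0460 for TopHat2 over Bowtie2-G (threshold passed without animal 8) and from -0.102 to -0.0546 for TopHat2 over GSNAP. The alpha to HBB correlation ranged from 0.494 to 0.872 with Bowtie2, 0.456 to 0.857 with Stampy, 0.529 to 0.878 with Bowtie2-G, 0.501 to 0.866 with Stampy-G, 0.513 to 0.874 with TopHat2 and 0.550 to 0.892 with GSNAP, each lowest without animal 11, where it missed the threshold. The cause was not tested.

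With TMM scaling the globin genes called higher and lower were 3 and 6 for Bowtie2 over Bowtie2-G, 3 and 6 for Stampy over Stampy-G, 1 and 9 for Stampy over Bowtie2, 2 and 7 for Stampy-G over Bowtie2-G and 4 and 4 for TopHat2 over GSNAP. The accessions called higher and lower were 3957 and 5479, 4483 and 7225, 4309 and 6257, 3838 and 4006, and 4439 and 4380 in the same pairs, and 3775 and 4999 for TopHat2 over Bowtie2-G. Without the replicate block, which leaves the spread between animals in the error, the globin genes called higher and lower were 2 and 0 for Bowtie2 over Bowtie2-G, 2 and 1 for Stampy over Stampy-G, 1 and 2 for Stampy over Bowtie2, 1 and 2 for Stampy-G over Bowtie2-G and 3 and 2 for TopHat2 over Bowtie2-G. For TopHat2 over GSNAP 1 was called lower. The number called higher, 7 with the block, is not listed, because only numbers that changed beyond a set fold are, and a change within it need not be slight. The accessions without the block were 4108 and 546 of 11365 tested, 4900 and 679 of 13339, 6367 and 279 of 13021, 5356 and 91 of 10675, and 3668 and 563 of 11090 in the first 5 of these pairs. For TopHat2 over GSNAP the accessions are not listed for the same reason, so the 1 gene called lower has no share without the block beside it. With the block, 93.3% of accessions were higher and 3.25% lower in that pair. With no filter, accessions called higher became 13992 for Stampy over Stampy-G and 17062 for Stampy over Bowtie2, and those called lower became 1604 for Bowtie2 over Bowtie2-G, 1850 for Stampy over Stampy-G, 340 for Stampy-G over Bowtie2-G, 1581 for TopHat2 over Bowtie2-G and 655 for TopHat2 over GSNAP, where more accessions were tested.

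With TMM scaling these log2 fold changes turned negative. For Bowtie2 over Bowtie2-G they were HBA1 (-0.13), HBA2 (-0.080), HBG1 (-0.037), HBQ1 (-0.31) and HBM (-0.18). For Stampy over Stampy-G they were HBA1 (-0.17), HBA2 (-0.34), HBB (-0.29) and HBZ (-0.045), and for Stampy over Bowtie2 HBA1 (-0.23), HBA2 (-0.15) and HBM (-0.21). For Stampy-G over Bowtie2-G they were HBA1 (-0.23), HBB (-0.15), HBZ (-0.18) and HBM (-0.012), and for TopHat2 over GSNAP HBB (-0.019) and HBE1 (-0.21). With the copies summed, HBA2 turned to -0.031 and HBG2 to 0.75 for TopHat2 over Bowtie2-G, and HBA1 to 0.62 and HBG2 to 1.97 for TopHat2 over GSNAP. Depth was lowest for HBZ, whose lowest column held 17 reads.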
